A study of Mus musculus with 10 samples.

Results

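Autophagy is the route by which a cell wraps part of its cytoplasm in a double membrane, the autophagosome, and delivers it to lysosomes for breakdown. A kinase complex built around ULK1 starts the process, and the class III phosphatidylinositol 3-kinase complex, with Beclin 1 (gene Becn1) as a core subunit, marks the membrane on which the vesicle grows. Conjugation enzymes then attach proteins of the ATG8 family to that membrane, receptors tie cargo to them, and the vesicle fuses with a lysosome. In the insulin-producing β cells of the pancreatic islet, autophagy is known for clearing damaged organelles and protein aggregates. It has also been studied in the turnover of insulin granules.

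The genes described here are 40 genes of this machinery, of 17945 named genes in a table of islet RNA levels. They were chosen as a group by function, and the group was chosen on the high values of Becn1 in the knockout libraries. The values of Becn1 are therefore given as a description, without a test. All 40 symbols were found in the table, and 37 of the 40 had a value of at least 10 in at least 5 libraries and could be tested, among 11711 genes that did.

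The libraries came from islets of 18-week-old C57BL/6 mice. The 5 knockout libraries carried both floxed Grk5 alleles and the Cre driver Pdx1-CreER, and the 5 control libraries carried both floxed alleles without the driver. Grk5 encodes a kinase of activated G protein-coupled receptors, and the study asked about its part in β-cell proliferation. CreER is Cre joined to the ligand-binding domain of the estrogen receptor, and it cuts after tamoxifen. Pdx1 marks β cells, and also other cells of the pancreatic lineage. Whole islets were profiled, so other endocrine cells, vessels and remnants of exocrine tissue were measured with the β cells. Nothing in the labels ties a library to an animal of its own, and p-values here therefore reflect library-to-library spread, which may be technical.

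The values are the authors' normalized counts. They summed to between about 5534390 and 7358040 per library, with 10222 to 14632 genes above 0, the fewest in knockout 1. Grk5 itself had values of 269.8, 129.9, 94.4, 207 and 105.5 in the knockout libraries and 197, 165, 387, 332 and 128 in the control libraries, so the groups overlapped in the targeted gene. Esr1, the estrogen receptor gene, had values of 2058, 1517, 2468, 3028 and 3177 in the knockout libraries and 2.00, 2495, 10.5, 0 and 773 in the control libraries. The libraries labelled control 2 and control 5 thus go against their label in this gene, and values without them are given below for Becn1, Pik3c3, Map1lc3b, Nbr1, Tfe3, Ctsa and Retreg1. The 10 β-cell markers, among them both insulin genes, were above 0 and summed to 970943 to 1283460 in knockout libraries and 960729 to 1183710 in control libraries. The label of the tissue as islet was thus borne out by its markers, and the 2 groups overlapped.

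Summed markers of some cell types leaned one way between the groups, with ranges that overlapped in each case given here. The summed values of 21 acinar markers, genes of the enzyme-secreting exocrine pancreas, ran from 37275 to 100159 in knockout libraries and from 24973 to 318148 in control libraries. All 19 of the acinar markers that could be tested were lower in knockouts. The 7 endothelial markers summed to 2693 to 3350 in knockout libraries and 2177 to 2737 in control libraries, and 6 of the 7 were higher in knockouts. The ductal markers found in the table summed to 5425 to 6966 in knockout libraries and 6949 to 8618 in control libraries, with 4 of 5 tested lower. All 10 β-cell markers were also lower in knockouts on the fitted scale. None of the markers found in the table for any cell type was at 0 in every library. The part of these other cells in the results was not tested, beyond a fit with the acinar level as a covariate. In whole islets, fewer cells of a type and less RNA per cell cannot be told apart.

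Together, the 40 genes held 0.258 ± 0.0406% of a knockout library and 0.251 ± 0.0163% of a control library (SD, n = 5 each), so their share of islet RNA differed by less than the spread between libraries. Lamp1 and Sqstm1 are the most abundant of them per length, and Becn1 is the member whose knockout and control libraries did not overlap. That separation is what the group was chosen on, so nothing is read from it beside the 0.862% of all genes tested whose groups did not overlap.

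Short stretches of promoter show where some members carry the sequence read by the transcription factors TFEB and TFE3, which are known to switch on lysosomal and autophagy genes and which are members themselves. These factors bind the E-box core CACGTG. The window searched ran from 250 bases before to 50 bases after the transcription start in RefSeq's table for GRCm38.p6, on both strands, and 34 of the 40 members were in that table. Becn1, Pik3c3, Rb1cc1, Atg12, Atg16l1 and Map1lc3a were not in it, so their promoters were not searched. CACGTG was found in 5 of the 34 (14.7%), which are Atg14, Atg3, Atg5, Atg7 and Lamp1, and in 8.09% of all 27025 genes in the table. The longer form TCACGTG, counted with its reverse complement CACGTGA and holding the shorter motif within it, was found in 4 of the 34 (11.8%) and in 4.29% of all genes. The 8-base form TCACGTGA was found in 1 member, Atg3, and in 1.12% of all genes. A match of letters is not a binding site, and these data hold no measurement of binding. The 4 promoters with the 7-base form are shown 5′ to 3′ on the gene's strand, with the motif in capitals (all 8 bases in the second copy of Atg3), because 1 of them, in front of Lamp1, holds 4 copies. Each start is one that RefSeq lists. Distances are to the first base of the motif on the gene's strand, so the motif of Atg14 runs across its start. The stretches of Atg7 and Atg14 lie inside the genes as GENCODE M21 places them. These run from 114643097 to 114860614 for Atg7 (plus strand) and from 47540893 to 47570649 for Atg14 (minus strand).
Atg7, chr6:114670951-114670981, plus strand, motif 133 bases before the start: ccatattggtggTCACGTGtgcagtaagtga
Lamp1, chr8:13159087-13159163, plus strand, the 4 copies between 62 and 16 bases before the start: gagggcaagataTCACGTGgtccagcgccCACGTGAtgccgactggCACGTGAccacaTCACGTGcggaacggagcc
Atg14, chr14:47568417-47568447, minus strand, motif 1 base before the start: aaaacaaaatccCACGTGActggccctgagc
Atg3, chr16:45158722-45158776, plus strand, 2 copies at 95 and 72 bases before the start: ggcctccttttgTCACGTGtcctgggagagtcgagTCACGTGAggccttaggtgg

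The first group by role is the class III phosphatidylinositol 3-kinase complex, which holds Becn1. Becn1 lies on chromosome 11 from 101285952 to 101302286 on the minus strand (GRCm38). Its normalized counts were 527, 1078, 515, 794 and 513 in the knockout libraries and 254, 166, 224, 447 and 343 in the control libraries. Every knockout library was above every control library, with the lowest knockout at 513 and the highest control at 447. The means were 686 ± 250.01 in knockouts and 287 ± 109.9 in controls (SD, n = 5 each), a log2 difference of 1.25 ± 0.32 (SE) on the log2(value + 8) scale. All log2 fold changes below are knockout over control on that scale, each with its SE after the ± sign, and the scale understates changes of low genes. Without controls 2 and 5 the Becn1 difference was 1.13, with the acinar level as a covariate it was 1.54, and without any 1 library it lay between 1.07 and 1.42.

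The catalytic subunit and the scaffold of the complex did not stand apart in the way Becn1 did. Pik3c3, the lipid kinase itself, had values of 209.7, 135, 260.0, 116 and 158 in knockouts and 158, 50.9, 114, 131 and 81.3 in controls. The groups overlapped, and the log2 fold change was 0.71 ± 0.44 (SE, limma adjusted p = 0.942). Without controls 2 and 5 the difference in Pik3c3 was 0.32. Pik3r4, the protein kinase-like scaffold of the complex, had values of 717, 87.9, 226, 915 and 124 in knockouts and 294, 166, 154, 270.3 and 457 in controls. Knockouts held both the highest and the lowest values of this gene, and its log2 fold change was 0.17 ± 0.57.

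Atg14 and Uvrag define the 2 alternative forms of the complex, one for building autophagosomes and the other for endosome and vesicle maturation. Atg14 had values of 10.6, 180.2, 30.1, 72.9 and 87.6 in knockouts and 0, 152, 73.3, 52.4 and 41.8 in controls. Uvrag had values of 95.8, 250.1, 189, 162 and 263 in knockouts and 64.7, 230.2, 42.4, 319 and 261 in controls. Both overlapped widely between the groups, with log2 fold changes of 0.34 ± 0.82 for Atg14 and 0.33 ± 0.53 for Uvrag. Ambra1, a binding partner of Beclin 1 that brings the complex to the site of initiation, averaged 353 ± 238 in knockouts and 371 ± 134 in controls (SD, n = 5 each), which is a log2 fold change of -0.28 ± 0.43.

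**Figure D1:**
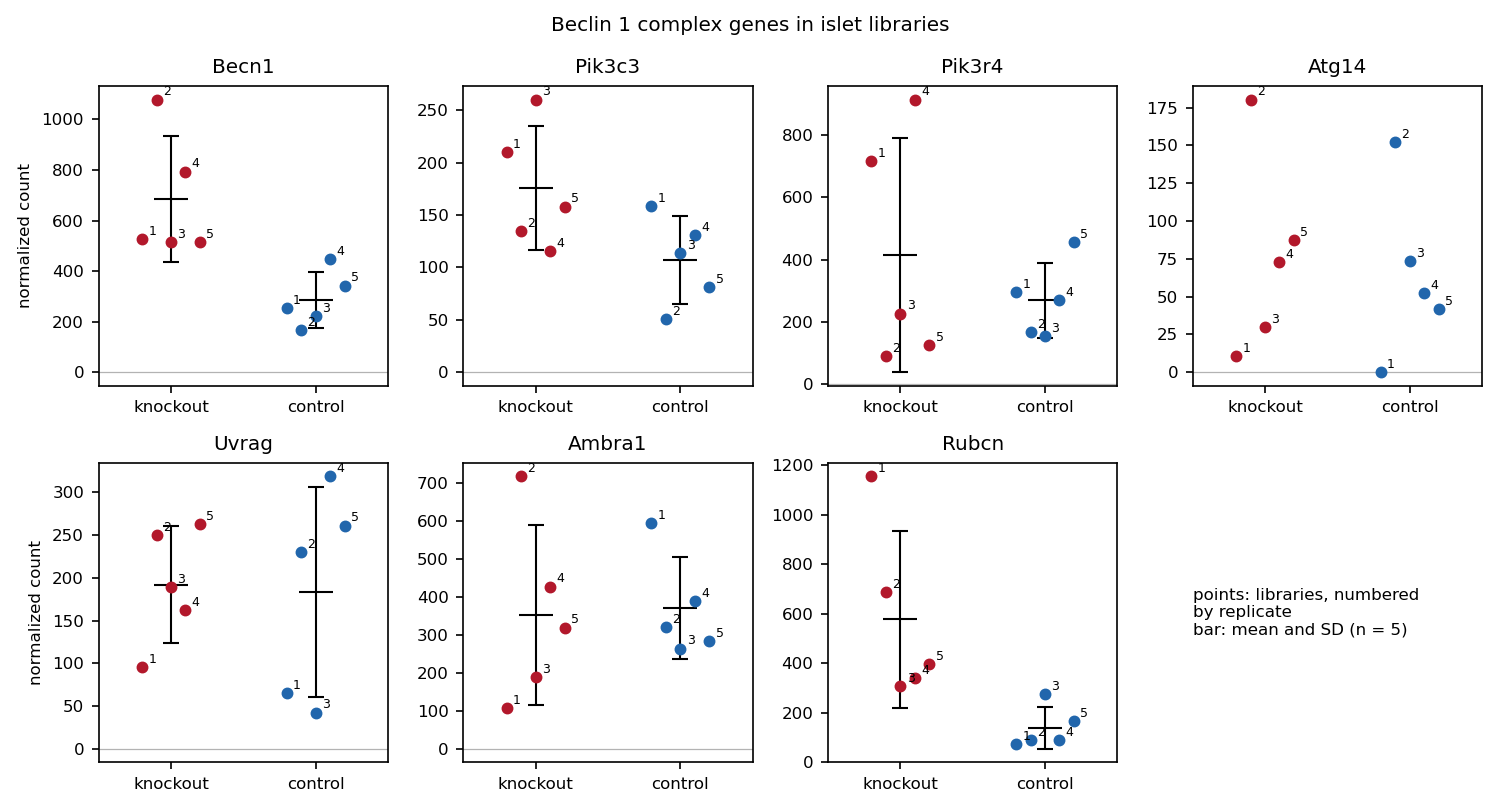
Normalized counts (linear axes, 1 panel a gene) of the 6 members of the phosphatidylinositol 3-kinase complex and of Rubcn, the Rubicon gene described further on, in each library, knockouts left of controls, with bars for the mean and SD where no library of the gene is at 0. For Becn1 the 5 knockout points, from 513 to 1078, lie above the 5 control points, from 166 to 447, Rubcn is apart likewise, and the other 5 genes overlap.

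As these are subunits of one complex, the level of Becn1 per kilobase of exon was set beside that of its partners in each library. The ratio of Becn1 to Pik3c3 ran from 1.25 to 5.07 in knockout libraries and from 1.01 to 2.67 in control libraries. Becn1 was thus the more abundant of the pair per length in all 10 libraries, and the ratios of the groups overlapped. Its ratio to Uvrag ran from 2.50 to 7.03 in knockouts and from 0.923 to 6.75 in controls. The ratio to Pik3r4 ran from 1.005 to 16.8 in knockouts and from 1.03 to 2.26 in controls. For Atg14 the ratio ran from 3.59 to 30.3 in knockouts. In controls it ran from 0.668 to 5.22, without control 1, where Atg14 was at 0. The groups overlapped in each ratio. Becn1 was chosen for its high knockout values, which tilts each ratio upward in knockouts. No group difference is therefore read from these ratios. Exon length here is that of all annotated isoforms merged, so a ratio between genes carries that choice.

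Where Becn1 lies bears on how its reads were counted. Its exons overlap those of Cntd1 on the opposite strand over 3104 bases, and no source used here states whether strand was used in counting. Reads from that stretch therefore may not be told apart. Cntd1 had values of 0, 16.1, 13.2, 123 and 61.6 in knockouts and 0, 32.8, 77.1, 0 and 49.2 in controls, so it was listed below Becn1 in every library and its groups overlapped. Other tested genes that lie within 30 kb of Becn1 had log2 fold changes of 0.19 ± 0.50 (Ramp2), -1.76 ± 0.93 (Vps25), 0.49 ± 0.51 (Wnk4), -1.16 ± 0.67 (Coa3) and -0.29 ± 0.45 (Psme3). None of them passed limma's test after adjustment, and 2 of the 5 were higher in knockouts. Nbr1, a cargo receptor and the nearest other member, lies 249.9 kb away from Becn1 and was not higher in knockouts, as given further on.

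Among the other 36 members tested, none passed limma's test at an adjusted p under 0.05, and adjusted p ran from 0.942 to 0.9997. At an unadjusted p under 0.05 the count was also 0 of 36. Over all 11711 genes limma called 0 (0%) after adjustment and 587 (5.01%) before it. Groups that did not overlap were found in 0 of the 36 members other than Becn1, beside 101 of 11711 genes (0.862%). In the authors' deposited table, 0 of the 40 members had an adjusted p under 0.05, and the lowest adjusted p of a member other than Becn1 was 0.787. The share of all genes under that threshold in the authors' test is not given here, so this 0 is not read as a result about the members. The sign of the fold change there was the same as limma's for 32 of the 37 members tested. Of the 36, 20 were higher and 16 lower in knockouts, with a median log2 fold change of 0.08, beside -0.03 over all genes tested. For 25 of the 36 the difference was smaller than its own SE.

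**Figure D2:**
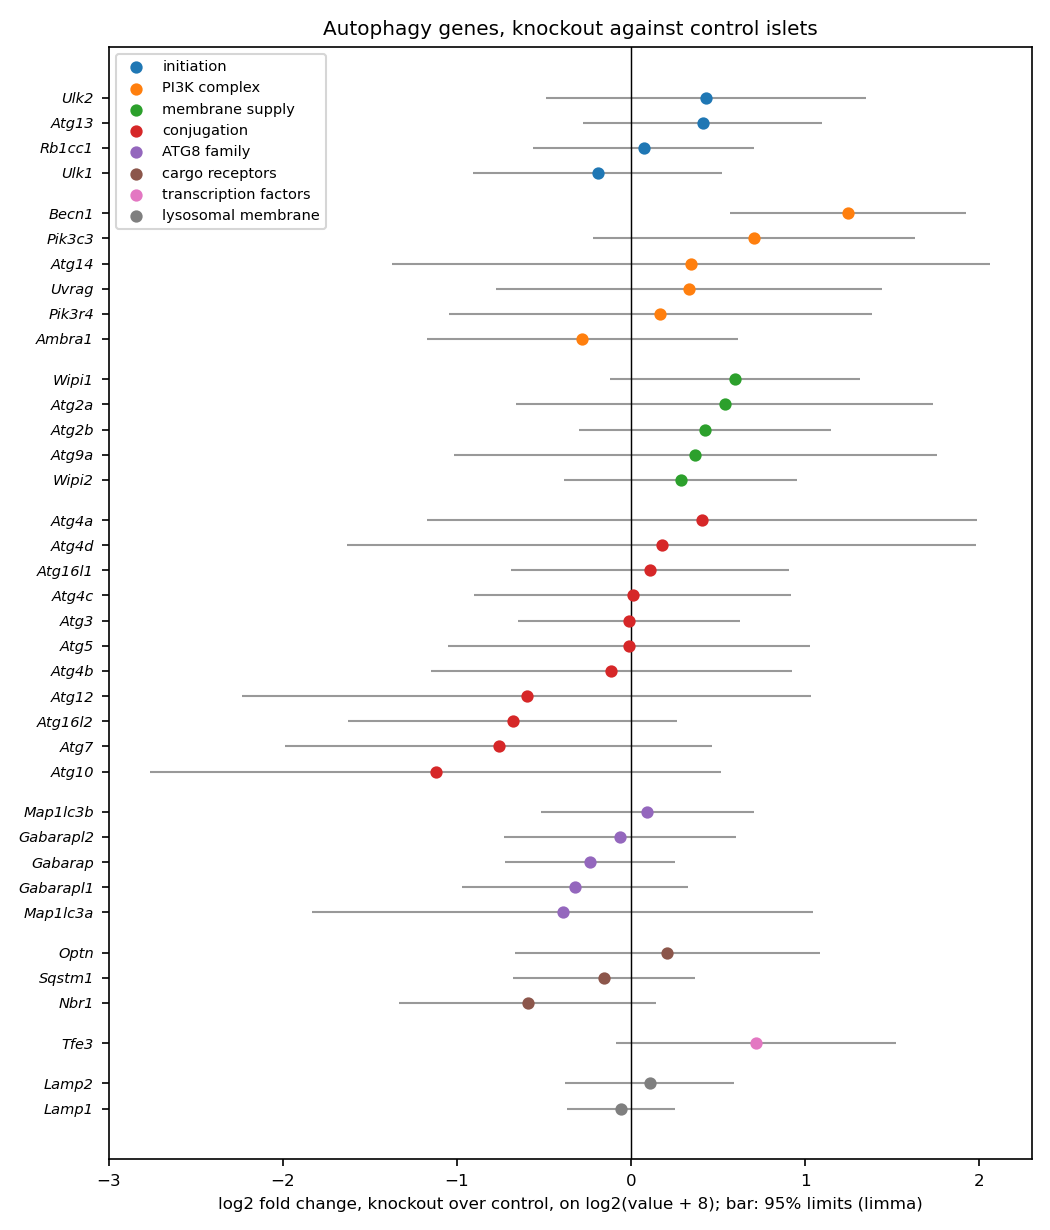
Log2 fold change, knockout over control, of the 37 members tested, ordered by role, with bars for the 95% limits from limma. Becn1, at 1.25, is drawn as a description because the group was chosen on it, and nothing is read from its bar. The limits of the other 36 members all include 0.

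The initiation complex senses nutrient signals and starts autophagosome formation. Of its 4 members, Atg13, a regulatory subunit that binds ULK1, had the highest level per length. Its values were 367, 336, 486, 778 and 296 in knockouts and 272, 306, 314, 236 and 521 in controls. Single libraries, knockout 4 and control 5, were the highest of their groups, and the groups overlapped (log2 fold change 0.41 ± 0.33). Ulk1, the kinase of the complex, averaged 259 ± 83.2 in knockouts and 295 ± 81.6 in controls (SD, n = 5 each). Ulk2, its close relative, averaged 237 ± 120.5 in knockouts and 167 ± 77.6 in controls, with the largest fold change of the 4 at 0.43 ± 0.44 (limma adjusted p = 0.963). Rb1cc1, the large scaffold also known as FIP200, averaged 746 ± 191 in knockouts and 753 ± 353 in controls. Each of these differences was smaller than the SD within a group or close to it.

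Members that supply membrane to the growing vesicle come next. They are the lipid transfer proteins ATG2, the scramblase ATG9 and the WIPI proteins that bind the lipid made by the kinase complex. All 5 of the 7 that could be tested were higher in knockouts, with log2 fold changes from 0.29 to 0.60, and none passed limma's test. Wipi1, one of the lipid binders, had values of 389.5, 212, 269, 461 and 326 in knockouts and 211, 159.9, 233, 151 and 327 in controls. Controls 3 and 5 lay within the knockout range, and the log2 fold change was 0.60 ± 0.34 (limma adjusted p = 0.942). Wipi2, which recruits the conjugation enzymes, averaged 473 ± 210.1 in knockouts and 372 ± 102 in controls, and its fold change of 0.29 ± 0.32 was within its SE.

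The 2 lipid transfer genes were also higher in knockouts on the fitted scale. Atg2a had values of 118, 72.3, 53.4, 63.6 and 61.9 in knockouts and 37.7, 27.7, 83.1, 78.2 and 29.7 in controls. Atg2b had values of 341, 373, 388, 221 and 416 in knockouts and 466, 169, 180.0, 318 and 221 in controls. In both genes, 1 or more controls lay among the knockouts, and the log2 fold changes were 0.54 ± 0.57 for Atg2a and 0.42 ± 0.35 for Atg2b. Without controls 2, 3 and 5, in which 25.0% to 26.0% of values were whole multiples of the commonest low value, against 29.8% to 37.0% in the other 7 libraries, Atg2b was lower in knockouts, at -0.18. Atg9a, the scramblase, had a log2 fold change of 0.37 ± 0.66.

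The 3 members that could not be tested were low in both groups and had a value of at least 10 in 4 libraries each. Atg9b, the second scramblase gene, was listed at 0, 9.96, 5.44, 24.3 and 24.3 in knockouts and 51.2, 15.8, 0, 5.11 and 0 in controls. Wdr45, a further WIPI family gene on the X chromosome, was listed at 0, 20.3, 39.4, 8.29 and 0 in knockouts and 74.8, 0, 41.4, 0 and 0 in controls. The exons of Wdr45 overlap those of a coding gene model on the same strand. Tfeb was listed at 0, 37.1, 96.8, 0 and 0.506 in knockouts and 0, 1.15, 14.9, 86 and 0 in controls. These values show both groups near the floor with single higher libraries, and no fold change is given. Just inside the limit was Atg4d, with a value of at least 10 in 5 libraries. It was listed at 0, 61.5, 42.7, 0 and 19 in knockouts and 10.1, 135, 8.26, 1.84 and 0 in controls.

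The largest group by role is the conjugation system of 11 genes, which prepares ATG8 proteins and couples them to lipid. Of these, 4 were higher and 7 lower in knockouts, with a median log2 fold change of -0.01. Atg3, the enzyme that transfers ATG8 proteins to lipid, had the highest level per length, with values of 334, 469, 324, 283 and 374 in knockouts and 214, 413, 309.6, 403 and 501 in controls. Its log2 fold change was -0.01 ± 0.30, with 95% limits from -0.65 to 0.63. The means of Atg3, 357 ± 70.9 in knockouts and 368 ± 109 in controls (SD, n = 5 each), thus differed by far less than the SD within a group. Its promoter holds 2 copies of the motif printed above.

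Of the conjugation genes, 3 had the most negative fold changes. Atg7, the activating enzyme at the head of both conjugation steps, had values of 27.4, 29, 94.6, 48.3 and 45.4 in knockouts and 155, 83.7, 34.5, 75.8 and 97.4 in controls. The log2 fold change of Atg7 was -0.76 ± 0.59 (limma adjusted p = 0.955). Atg10, which couples ATG12 to ATG5, was listed at 0, 0, 22.7, 0 and 68.6 in knockouts and 28.8, 37.3, 54.2, 45 and 2.61 in controls. Here 3 knockout libraries listed at 0 were below every control, while knockout 5 was the highest of all 10, and the log2 fold change was -1.12 ± 0.78 (limma adjusted p = 0.942). Atg16l2, a relative of Atg16l1, had values of 103, 314, 176, 87.5 and 133 in knockouts and 569, 232, 139, 154 and 273 in controls, with 3 knockouts below every control. Its log2 fold change was -0.68 ± 0.45 (limma adjusted p = 0.942), and without control 1, its highest library, it was -0.37.

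Atg16l1, the subunit that directs the conjugation enzyme to the membrane, averaged 255 ± 65.1 in knockouts and 253 ± 112 in controls (SD, n = 5 each). Atg5, its partner, had a log2 fold change of -0.01 ± 0.50. Atg12, which is coupled to ATG5, was listed at 0, 97.8, 64.9, 268 and 158 in knockouts and 169.6, 38.8, 108, 172 and 122 in controls. The knockout library at 0 is knockout 1, the library with the fewest genes above 0, and the fold change of Atg12 was -0.60 ± 0.78. The 4 members of the ATG4 family, proteases that trim ATG8 proteins, had log2 fold changes of 0.41 ± 0.75 (Atg4a), -0.11 ± 0.49 (Atg4b), 0.01 ± 0.43 (Atg4c) and 0.18 ± 0.86 (Atg4d). Atg4a is uncertain, because the annotation holds a copy of it, Atg4a-ps, that the counting could have shared reads with.

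The ATG8 family proteins sit in the autophagosome membrane, and they are the members by which autophagosomes are usually seen. Of the 5 genes, 4 were lower and 1 was higher in knockouts, with a median log2 fold change of -0.24 and none past limma's test. Gabarap, the most abundant per length, had values of 709.9, 454, 568, 531 and 652 in knockouts and 608, 698, 558, 746 and 825 in controls. The groups overlapped, with means of 583 ± 101 in knockouts and 687 ± 107 in controls (SD, n = 5 each) and a log2 fold change of -0.24 ± 0.23. Gabarapl1, a close relative, averaged 357 ± 143 in knockouts and 429 ± 77 in controls, and Gabarapl2 averaged 581 ± 248 in knockouts and 584 ± 188 in controls.

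Map1lc3b encodes LC3B, whose lipid-coupled form is the common marker of autophagosomes. It had values of 802, 470.2, 1069, 555 and 795 in knockouts and 542, 407, 975, 952 and 625 in controls. The spread within each group was about as wide as the whole range, and the log2 fold change was 0.09 ± 0.29, with 95% limits from -0.52 to 0.71. Its sign depended on the libraries used, being -0.17 without controls 2 and 5. Map1lc3a had values of 6.10, 75.8, 48, 126 and 40.4 in knockouts and 30.3, 133, 37.8, 92.3 and 59.4 in controls, with the largest fold change of the family at -0.39 ± 0.68 (limma adjusted p = 0.974). Without knockout 1, its lowest library, that difference was 0.09.

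Cargo receptors bind ubiquitin on their load and ATG8 proteins on the membrane. Sqstm1, known as p62, is the receptor whose protein builds up when autophagy is blocked. It had values of 2704, 3177, 2442, 1024 and 2548 in knockouts and 2703, 2777, 2094, 2082 and 2865 in controls. Apart from knockout 4 at 1024, the ranges of the groups overlapped widely, and the log2 fold change was -0.15 ± 0.25, with 95% limits from -0.68 to 0.37. Without knockout 4 it was 0.12.

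Nbr1, a receptor related in function to p62, had values of 883, 1156, 1855, 1632 and 724 in knockouts and 2749, 1250.1, 3477, 1476 and 1004 in controls. Controls 1 and 3 were above every knockout, and knockouts 1 and 5 were below every control. Its log2 fold change was -0.59 ± 0.34 (limma adjusted p = 0.942), and it was -1.03 without controls 2 and 5 and -0.35 without control 3, its highest library. Optn, the receptor optineurin, averaged 248 ± 90.7 in knockouts and 226 ± 103 in controls (SD, n = 5 each), which is a log2 fold change of 0.21 ± 0.42.

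Of the 2 transcription factors, Tfe3 could be tested. Tfe3 had values of 341, 655, 348, 189 and 316 in knockouts and 235, 231, 152, 355 and 121 in controls. Knockout 2 was the highest library, but controls 1, 2 and 4 lay within the knockout range, and the other 4 knockouts lay within the control range. The log2 fold change of 0.72 ± 0.38 was the most positive among the 36 members other than Becn1 and did not pass limma's test (adjusted p = 0.942). Without controls 2 and 5 it was 0.53, and without controls 2, 3 and 5 it was 0.24. Fold changes of the 4 members with the 7-base motif had both signs, at 0.34 for Atg14, -0.01 for Atg3, -0.76 for Atg7 and -0.06 for Lamp1.

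The 2 lysosomal membrane genes were among the best measured. Lamp1, a main glycoprotein of that membrane, had values of 1803, 2321, 2234, 2404 and 2130.3 in knockouts and 2443, 2148, 2023, 2473 and 2223 in controls. The means were 2179 ± 233 in knockouts and 2262 ± 193 in controls (SD, n = 5 each), and the 95% limits of its log2 fold change of -0.06 ± 0.15 ran from -0.37 to 0.25. Lamp2, its relative, averaged 796 ± 112 in knockouts and 751 ± 204 in controls, a log2 fold change of 0.11 ± 0.23 (limma adjusted p = 0.978).

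**Figure D3:**
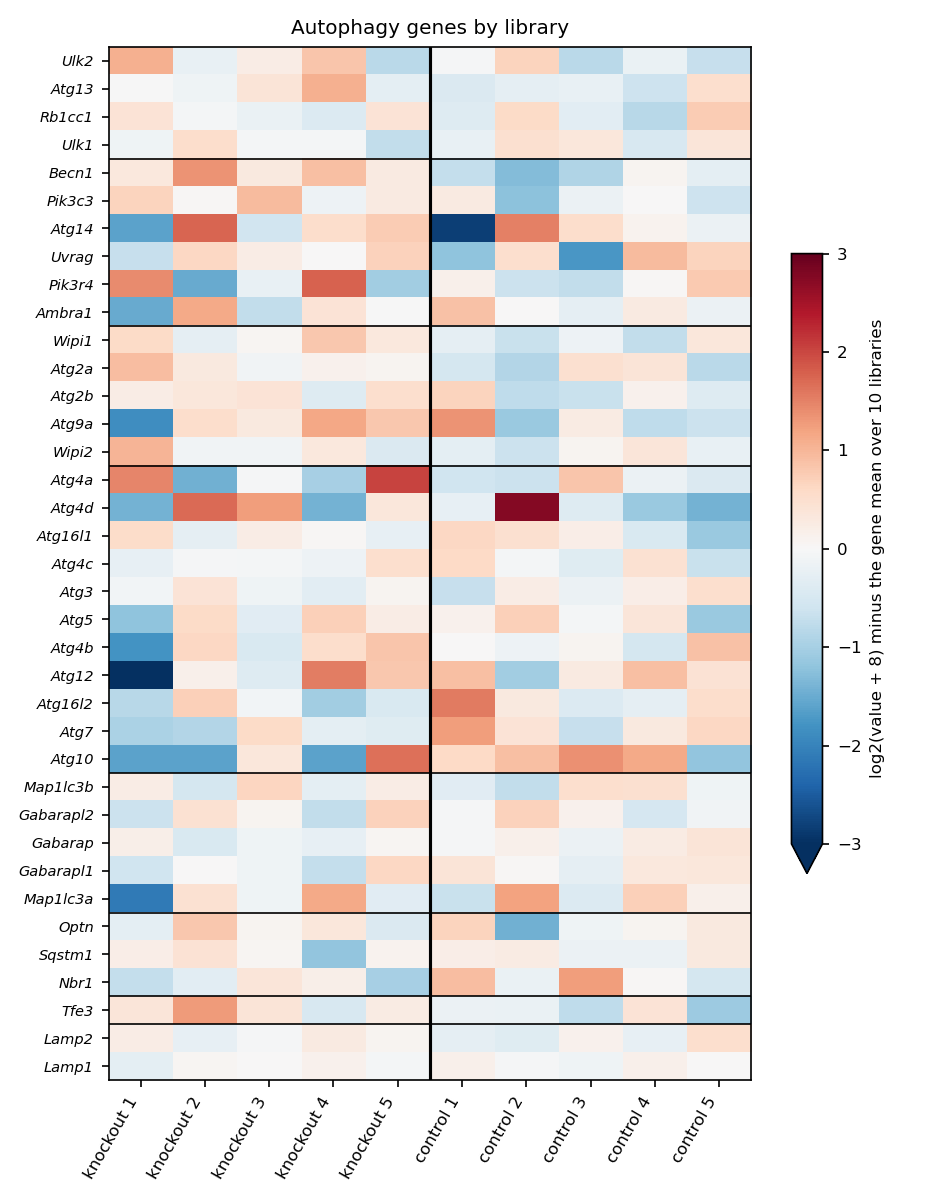
Colour map of the log2(value + 8) of the 37 members tested (rows, grouped by role) in every library (columns, knockouts left of controls), as the difference from that member's mean over the 10 libraries in log2 units. In the row of Becn1 every knockout is above every control, and single deviating libraries, such as knockout 1 for Atg12 and control 2 for Atg4d, stand out in the low members.

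Levels can be set against each other between members only per length, here as normalized count per kilobase of merged exon. Lamp1 was highest, at 814 ± 87.2 in knockouts and 846 ± 72.0 in controls, followed by Sqstm1 at 709 ± 241 in knockouts and 746 ± 115 in controls (SD, n = 5 each). These 2 did not differ beyond their spread, and both had higher means than Gabarap, at 316 ± 54.5 in knockouts and 373 ± 57.9 in controls. Gabarapl2, at 249.7 ± 107 in knockouts and 251 ± 80.9 in controls, came next, and its neighbours Nbr1 and Gabarapl1 lay within its spread. Becn1 held place 10 of 40 in knockouts and place 18 in controls, at 97.0 ± 35.4 in knockouts and 40.6 ± 15.6 in controls. Most members were far lower. Only 7 were above 100 per kilobase and 11 were under 20, and the highest and the lowest mean level, of Lamp1 and Atg9b, were 241-fold apart. The first 6 places thus went to 1 lysosomal membrane gene, 2 cargo receptors and 3 ATG8 family genes, and Atg3 followed.

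**Figure D4:**
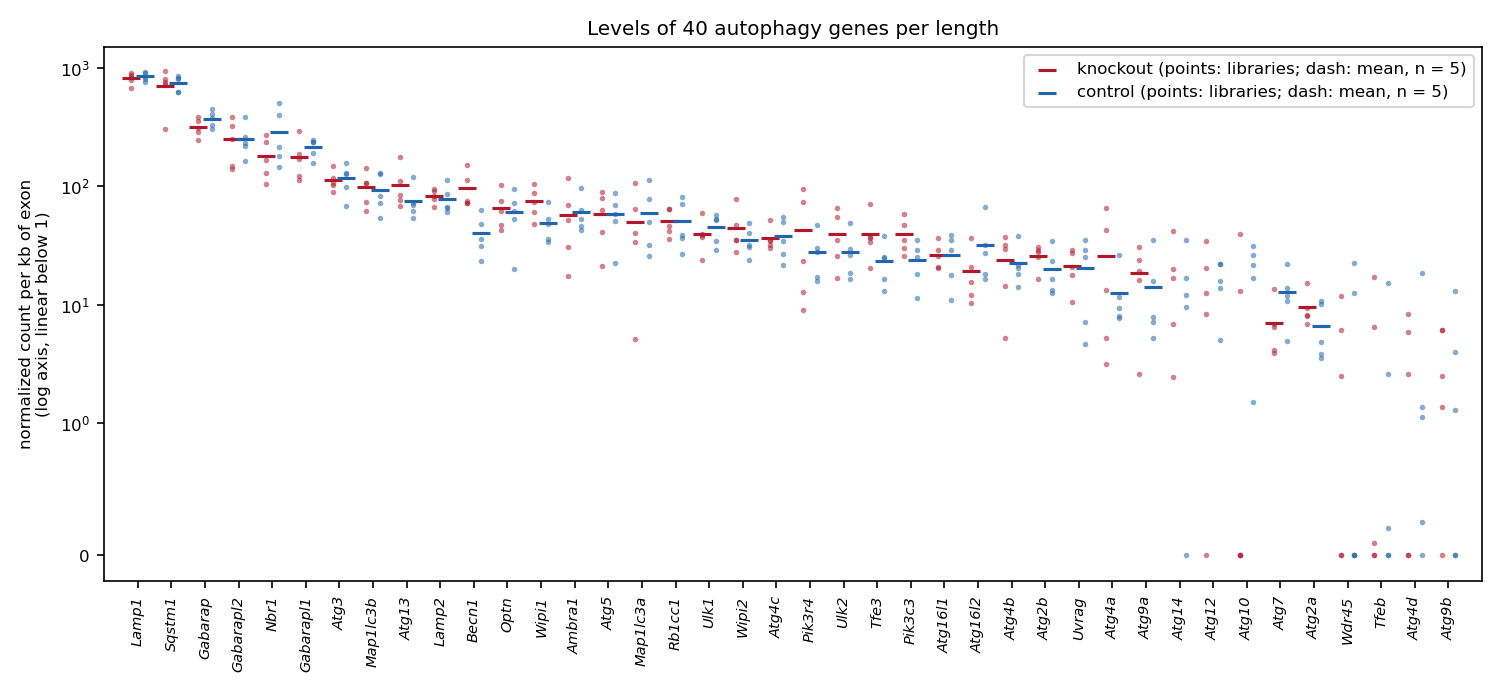
Normalized count per kilobase of merged exon for each member in each library, ordered by mean level, knockout points left of control points, on a log axis that turns linear near 0. Dashes mark group means and are drawn for members above 0 in all 10 libraries. Lamp1 and Sqstm1 lead the order, and the 2 groups of points of Becn1, the gene the group was chosen on, are apart, in place 10 among knockout and place 18 among control means.

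How well each member was measured sets what the comparison could show. Within groups, the SD of log2(value + 8) had a median of 0.57 over the 37 members tested, from 0.14 for Lamp1 to 1.56 for Atg4d, beside a median of 0.84 over all genes tested. The 95% limits lay within a 2-fold change in either direction for 13 of the 37. These are Ulk1, Rb1cc1, Wipi2, Atg3, Atg4c, Atg16l1, Map1lc3b, Gabarap, Gabarapl1, Gabarapl2, Sqstm1, Lamp1 and Lamp2. Only for Lamp1 were they within 1.41-fold. For the other 24 the limits reached past a 2-fold change in at least one direction. Becn1 is counted among these 24, but nothing is read from its limits, because the group was chosen on it.

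Around these members, 103 further genes of the pathway were listed by role, of which all were found and 99 could be tested. Of the 99, 36 were higher and 63 lower in knockouts, with a median log2 fold change of -0.10. None passed limma's test after adjustment (0% of all genes tested did), and 8 had an unadjusted p under 0.05, 3 of them higher and 5 lower, beside 5.01% of all genes. The groups did not overlap for 2 of the 99, beside 0.862% of all genes.

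The list of further Beclin 1 partners and regulators held 13 genes, with 6 higher and 7 lower. Rubcn encodes Rubicon, which binds the UVRAG form of the Beclin 1 complex and is known as an inhibitor of autophagosome maturation. The table lists Rubcn under its older symbol, 1700021K19Rik. It had values of 1156, 688, 306, 339.8 and 395 in knockouts and 74.3, 90.2, 276, 87.6 and 166 in controls. Every knockout was above every control, and the log2 fold change was 1.97 ± 0.44, which did not pass limma's test (adjusted p = 0.735, from 0.324 to 0.99998 over the alternatives). Of the 13 listed partners tested, Rubcn was the 1 whose groups did not overlap, beside 0.862% of all genes tested. Becn1 is the gene the group was chosen on, so nothing is read from its being apart together with Rubcn. Vmp1, a scramblase of the endoplasmic reticulum that acts with the complex, had values of 616, 114, 253, 143 and 299 in knockouts and 478, 527, 620.1, 386 and 308 in controls, a log2 fold change of -0.89 ± 0.40 (limma adjusted p = 0.942).

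Of 13 genes for fusion of autophagosomes with lysosomes, 3 were higher and 10 lower. Vps11, a core subunit of the HOPS tether, was listed at 0, 74, 179, 139 and 296 in knockouts and 299, 152, 463, 387 and 376 in controls. Its log2 fold change was -1.87 ± 0.78 (limma adjusted p = 0.942), and without knockout 1, the library at 0, it was -0.997. Rab7, the small GTPase of late endosomes, had a log2 fold change of -0.23 ± 0.19. Vamp8, a fusion SNARE, was the second of the 99 genes whose groups did not overlap. It had values of 96.4, 114, 93.5, 93.4 and 94.8 in knockouts and 36, 87.7, 75.4, 72.2 and 59.3 in controls, a log2 fold change of 0.57 ± 0.49 (limma adjusted p = 0.955).

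The 28 tested genes of mTORC1 and AMPK control, the nutrient switches upstream of ULK1, were higher in 8 cases and lower in 20. Sesn3, a sestrin that restrains mTORC1, had values of 99.4, 82.4, 157, 205 and 179 in knockouts and 354, 279, 269, 175 and 302 in controls. Only control 4 lay within the knockout range, and the log2 fold change was -0.93 ± 0.38 (limma adjusted p = 0.942). Rragb, a GTPase that brings mTORC1 to the lysosome, was listed at 0, 45.6, 26.8, 133 and 82.6 in knockouts and 164, 77.1, 169, 191 and 113 in controls, a log2 fold change of -1.67 ± 0.69 (limma adjusted p = 0.942). Without knockout 1, the library at 0, the difference in Rragb was -1.05.

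Lysosomal enzymes and acidification genes, which digest what autophagy delivers, numbered 26, with 9 higher and 17 lower. The 2 with the smallest p were both higher. Lipa, the lysosomal acid lipase, was listed at 117, 64.2, 63.8, 61.2 and 48.6 in knockouts and 23, 11.4, 0, 35.8 and 58.1 in controls, a log2 fold change of 1.501 ± 0.684 (limma adjusted p = 0.942). Ctsa, a lysosomal carboxypeptidase, had values of 807, 246, 273, 436 and 234 in knockouts and 166, 139.8, 129, 512 and 134 in controls. Control 4 was above 4 of the knockouts, and the log2 fold change was 0.92 ± 0.44 (limma adjusted p = 0.942). Leaving out controls 2 and 5 gave 0.65 for Ctsa, and leaving out controls 2, 3 and 5 gave 0.27.

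Among 19 further selective receptors, 10 were higher and 9 lower. Retreg1, a receptor for the breakdown of endoplasmic reticulum that the table lists as Fam134b, was listed at 0, 12.3, 20.1, 0 and 52.7 in knockouts and 7.22, 214, 69.1, 81.5 and 38.2 in controls, a log2 fold change of -1.78 ± 0.81 (limma adjusted p = 0.942). Leaving out controls 2 and 5 gave -1.34 for Retreg1. Tollip, an adaptor that binds ubiquitin, had a log2 fold change of -0.58 ± 0.31 (limma adjusted p = 0.942). In none of the 5 lists did a gene pass limma's test after adjustment.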

How the data were processed

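Libraries were made from rRNA-depleted islet RNA with random primers and kept strand, per the labels' protocols. STAR 2.4.0.1, HTSeq and DESeq2 appear in the submitters' processing notes, with no step given. No source used here gives the build or annotation. The deposited values are the authors' normalized counts per gene, a signal unit. Between 25.0% and 37.0% of the values above 0 were whole multiples of a library's commonest low value (tolerance 0.01), so whole reads were not recovered and depth is known only roughly. Dividing the totals by that value gives about 2072840 to 10951000. The same table holds the authors' log2 fold changes, test scores and p-values, which are quoted under that name alone. The 1 row without a gene name (0.00774% to 0.0251% of a library) was left out.

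Genes with a value of at least 10 in at least 5 libraries were tested as log2(value + 8) in limma 3.58.1 (R 4.3.3), using a variance trend, robust estimates and Benjamini-Hochberg adjustment over all genes tested. The steps were tested on simulated data. Python 3.11.15, pandas 2.3.3 and matplotlib 3.10.9 made the descriptions and figures. Positions and exon lengths are from GENCODE M21 on GRCm38, and promoter sequences are from RefSeq. All 103 pathway genes matched, 4 of them through a RefSeq synonym.

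The members and all lists were chosen with earlier results of these data known. By rule, values in every library are given for Becn1, for members whose groups do not overlap or with an unadjusted p under 0.05, and for the most abundant member of each role. Fold changes are given for the largest of each role, and at most 2 genes of each list are named. Other values, and Vamp8 and the genes near Becn1, were added after they were seen. Alternatives were other pseudocounts, filters, scalings, variance estimates, quality weights, the acinar level as a covariate and left-out libraries.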

Additional observations from a re-analysis of the deposited data

Results flagged for a closer look

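In 74 groups of 5 libraries (37 members, each in knockouts and in controls), 4 had 1 library whose gap to the nearest other was more than 0.71 of the group's range, Dixon's 95% limit. Chance flags about 1 group in 20, so about 3.7 of 74. Atg4c, an ATG4 protease, was 174 in knockout 5, with the other 4 knockouts between 101 and 118. Atg13 was 521 in control 5, with the other 4 controls between 236 and 314. Atg4a was 70.9 in control 3, with the others between 20.5 and 31.1. Atg4d was 135 in control 2, with the others between 0 and 10.1.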

How the results depend on the processing

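No paired analysis was possible because the labels give no replicate numbers. No member was called after adjustment under any of the 21 alternatives. Over all genes, where 0 were called, limma called 1 without the variance trend and robust estimates, 1 without controls 2 and 5, 3 without controls 2, 3 and 5, and 0 to 1 with single libraries left out. Of the 36 members other than Becn1, where 0 had an unadjusted p under 0.05, the count was 1 with library quality weights (Tfe3), 1 with the acinar covariate (Pik3c3), 1 without controls 2 and 5 (Nbr1), and 0 to 2 with single libraries left out. The single libraries concerned were control 4 (Tfe3), control 5 (Wipi1 and Nbr1), knockout 3 (Nbr1), knockout 4 (Tfe3) and knockout 5 (Atg10). Over all genes, 662 of 11711 were under that threshold with quality weights, 406 of 11711 with the acinar covariate and 461 of 11013 without controls 2 and 5. With single libraries left out, 497 to 631 genes were, of 11263 to 11550 tested. The counts of members are therefore not read as results about the genes named. The unadjusted counts of the 5 pathway lists also moved over the alternatives. They ran from 1 to 2 for Beclin 1 partners (2 in the main fit), 0 to 1 for fusion (1) and 0 to 2 for other receptors (1). For mTORC1 and AMPK control (2) and for lysosomal enzymes and acidification (2) they ran from 0 to 3.

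The median log2 fold change of the members tested, 0.09, was -0.0079 with the acinar covariate, -0.0109 without controls 2, 3 and 5, and -0.0242 (without knockout 5) to 0.11 (without knockout 4) with single libraries left out. The median of all genes, -0.03, was 8.25e-05 with quality weights and -0.0513 to 0.0168 with single libraries left out. The cause was not tested. Signs were followed for 18 members, most of them picked for the largest fold change of a role or for one above its SE. Signs of the members not followed changed for 9 of 19 without knockout 1 and for 9 of 18 without controls 2, 3 and 5. Of the 18 members followed, 13 kept their sign under each alternative that gave a value. That was 21 alternatives for each but Atg10, which had 19. It was too low to be tested at a minimum of 50 or without controls 2, 3 and 5. Lamp1 was 0.0025 with the acinar covariate and -0.10 to 0.0092 with single libraries left out, Map1lc3b was -0.17 without controls 2 and 5, -0.0205 without controls 2, 3 and 5 and -0.0798 to 0.24 with single libraries left out, and Atg2b was -0.18 without controls 2, 3 and 5. With single libraries left out, Map1lc3a ran from -0.73 to 0.0865 and Sqstm1 from -0.28 to 0.12. Becn1 ran from 0.94 (without controls 2, 3 and 5) to 1.54 (acinar covariate). Exon lengths of the longest transcript gave the same 5 members at the top of the levels.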
